A study of Mus musculus with 6 samples.

Results

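Mt1, Mt2, Slc30a1, Slc39a10, Slc31a1, Atp7a, Atox1, Ccs, Cox17 and Sod1 are 10 of the 32285 genes in a single-cell matrix of mouse tumors, picked by symbol because their products bind, carry or use copper and zinc. All 10 were present under these symbols and all 10 had UMIs. A UMI (unique molecular identifier) stands for 1 captured RNA molecule. The tumors grew from MOC-2 cells, a mouse head and neck squamous carcinoma line, placed under the skin of male mice. Tumors were taken 24 h after an injection into the tumor, from 3 mice given an experimental agent and from 3 given vehicle, which the descriptions call DMSO. The list of reagents includes copper(II) diethyldithiocarbamate, a copper complex. Which of the reagents the treated tumors received is not stated, and neither is the strain of the mice. The sort kept viable cells and used no lineage marker.

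The deposited matrix pools all tumors. Its barcodes end in 6 suffixes, called barcode sets here, and no label ties a set to a tumor or to a treatment. Treated and vehicle tumors could therefore not be compared, and the sets are reported as samples of unknown group. Sets held 901 to 4077 cells and 7354560 to 38798439 gene UMIs, with 0 barcodes shared between sets apart from the suffix. Of 14818 cells, 13747 were analysed, at a median of 8376 UMIs per cell. Each cell was placed by marker genes into carcinoma (8397 cells), into 1 of 11 host lineages of at least 50 cells, or into neither (1882 cells without a class, the rest in classes not ranked). The carcinoma cells were picked by the line's own genes Xist, Tslp, Tac1 and the proliferin genes Prl2c2 and Prl2c3, or by epithelial markers. Expression of these genes in them is thus set by the gate. They were cut into 12 states called by their leading genes. Levels are counts per 1000000 UMIs of the class (CPM). Brackets hold exact 95% Poisson intervals, which cover counting error only and not the spread between tumors. No p-value was computed, because cells of 1 pool are not replicates. A summed level cannot tell fewer expressing cells from less RNA in each.

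Metallothioneins are small cysteine-rich proteins that bind zinc and copper. Their genes are switched on by the zinc-sensing factor MTF-1, which binds short metal response elements in promoters and also acts on Slc30a1. Slc30a1 (ZnT1) exports zinc across the plasma membrane, and Slc39a10 (ZIP10) imports it. Slc31a1 (CTR1) brings copper into the cell. Inside, Atox1 hands copper to Atp7a, which pumps it into the secretory pathway or out of the cell, Ccs hands it to the superoxide dismutase Sod1, and Cox17 takes part in its delivery to cytochrome c oxidase in mitochondria.

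On mouse build mm10 (GENCODE M21), Mt2 lies at chr8:94172664-94173568 and Mt1 at chr8:94179082-94180327, both on the forward strand and next to each other. The transcripts of Mt1 and Mt2 share 0 of their runs of 25 bases, so no exact stretch of that length is shared by the pair. The other members lie at chr1:191906767-191913247 (Slc30a1), chr1:46807544-46892852 (Slc39a10), chr4:62360727-62391769 (Slc31a1), chrX:106027276-106124926 (Atp7a), chr11:55446641-55461239 (Atox1), chr19:4825366-4839332 (Ccs), chr16:38346991-38352763 (Cox17) and chr16:90220754-90226329 (Sod1). All are protein-coding.

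The promoters of Mt1, Mt2 and Slc30a1 are shown because these are members known to be switched on by MTF-1, and because Slc30a1 followed a different pattern from the metallothioneins below. They are RefSeq promoters of build GRCm38.p6, forward strand, 250 bases before to 50 after the start given there. They cover chr8:94178839-94179138 (Mt1), chr8:94172368-94172667 (Mt2) and chr1:191906531-191906830 (Slc30a1). Capitals mark matches to the core of the metal response element, TGCACNC or TGCGCNC, on either strand.
Mt1: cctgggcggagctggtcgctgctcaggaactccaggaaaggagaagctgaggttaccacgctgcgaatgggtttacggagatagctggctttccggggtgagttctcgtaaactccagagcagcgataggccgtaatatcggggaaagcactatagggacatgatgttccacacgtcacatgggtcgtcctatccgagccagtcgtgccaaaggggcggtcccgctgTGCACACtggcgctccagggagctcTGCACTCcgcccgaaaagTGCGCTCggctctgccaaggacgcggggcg
Mt2: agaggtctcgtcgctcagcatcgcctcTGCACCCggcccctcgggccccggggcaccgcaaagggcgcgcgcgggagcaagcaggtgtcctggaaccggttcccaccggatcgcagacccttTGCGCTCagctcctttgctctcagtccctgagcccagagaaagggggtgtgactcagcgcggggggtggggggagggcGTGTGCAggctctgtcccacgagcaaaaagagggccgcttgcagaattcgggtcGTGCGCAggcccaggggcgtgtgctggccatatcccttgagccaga
Slc30a1: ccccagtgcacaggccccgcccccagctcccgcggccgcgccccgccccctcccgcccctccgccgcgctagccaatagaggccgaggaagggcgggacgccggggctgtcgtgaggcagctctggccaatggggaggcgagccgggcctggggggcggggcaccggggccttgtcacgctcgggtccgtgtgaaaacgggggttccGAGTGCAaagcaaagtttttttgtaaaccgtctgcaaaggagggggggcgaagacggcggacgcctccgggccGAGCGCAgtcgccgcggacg

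Mt2 held 4 matches, Mt1 held 3, and Slc30a1 and Atp7a held 2 each. Of 32851 promoters in the same table, 25.7% held at least 1 match, 7.11% at least 2, 1.97% at least 3 and 0.517% at least 4. In Mt1 the matches began at positions -23, 3 and 21 from the start, in Mt2 at -223, -128, -50 and 5, and in Slc30a1 at -43 and 31. Those of Atp7a began at -132 and -120. The promoter of each of the other 4 members in the table (Slc39a10 with 2 promoters, Slc31a1, Atox1 and Sod1) held no match. Ccs and Cox17 were not matched there. The short hypoxia response core, ACGTG or GCGTG on either strand, occurred 2 times in Mt1 and 2 times in Mt2, while 20.6% of all promoters held at least 2. It occurred 5 times in Atp7a and 3 times in Sod1, counts reached by 1.66% and 8.93% of all promoters. It occurred 1 time each in Slc30a1, Slc31a1 and Atox1, and at least 1 time in 43.8% of all promoters. The antioxidant response core TGACNNNGC occurred 1 time each in Mt2, Slc30a1, Atox1 and Sod1, and at least 1 time in 12.4% of all promoters. Of the metal response matches, 1 of Mt2 and 1 of Atp7a overlapped a hypoxia core. Such matches describe letters and show no binding. Only these windows around the annotated starts were searched, so sites further out, or near other starts of the same gene, are not counted.

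Mt1 and Mt2 gave most of the members' UMIs, 99189 and 82346. Atox1 followed with 51380, Cox17 with 26033 and Sod1 with 15733. Ccs (5751), Slc39a10 (5549), Slc31a1 (4090), Atp7a (2370) and Slc30a1 (2312) were sparse, so their values in small classes rest on few molecules. Of the Mt1 UMIs, 78.6% were in carcinoma cells, which held 77.3% of all gene UMIs.

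Mt1 and Mt2 were highest in fibroblast-like cells among the 12 lineages of at least 50 cells, and higher there than in carcinoma cells. Mt1 stood at 1217 CPM [1174 to 1261] in 351 fibroblast-like cells, against 719 CPM [714 to 724] in carcinoma cells, a ratio of 1.69. Mt2 stood at 900 CPM [862 to 938] in fibroblast-like cells, against 622 CPM [618 to 627] in carcinoma cells, a ratio of 1.45. Mast cell or basophil-like cells came next for Mt1 at 843 CPM, from 72 cells of which a single cell gave 18.3% of the Mt1 UMIs. Endothelial-like cells were lowest for both genes, at 45.9 CPM of Mt1 and 34.4 CPM of Mt2, resting on 16 and 12 UMIs from 58 cells. A class of 20 B or plasma cell-like cells, too small to rank, had 1454 CPM of Mt1. The span over the 12 lineages was 26.5-fold for Mt1 and 26.1-fold for Mt2. It rests on the marker gate for endothelial-like cells, in which Mt1 was 0.0638 of its carcinoma level, against 0.224 where whole clusters were named by markers instead.

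The excess of Mt1 in fibroblast-like cells held inside each barcode set. Mt1 was 594, 803, 1421, 1423, 1875 and 2458 CPM in fibroblast-like cells of sets 1 to 6, against 529, 379, 751, 508, 1245 and 1279 CPM in carcinoma cells. The ratio was above 1 in 6 of 6 sets, between 1.12 and 2.80 with a median of 1.91. For Mt2 it was above 1 in 5 of 6 sets, between 0.834 and 1.98. Mt2 was 364, 612, 1075, 944, 1570 and 1968 CPM in fibroblast-like cells of sets 1 to 6, against 437, 436, 718, 477, 961 and 1079 CPM in carcinoma cells. Set 1 is the one in which Mt2 was lower in fibroblast-like than in carcinoma cells. The gate for fibroblast-like cells asks for 150 marker UMIs per 10000, and 44 cells with 100 to 150 stayed outside while 22 gated cells had under 200.

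**Figure D1:**
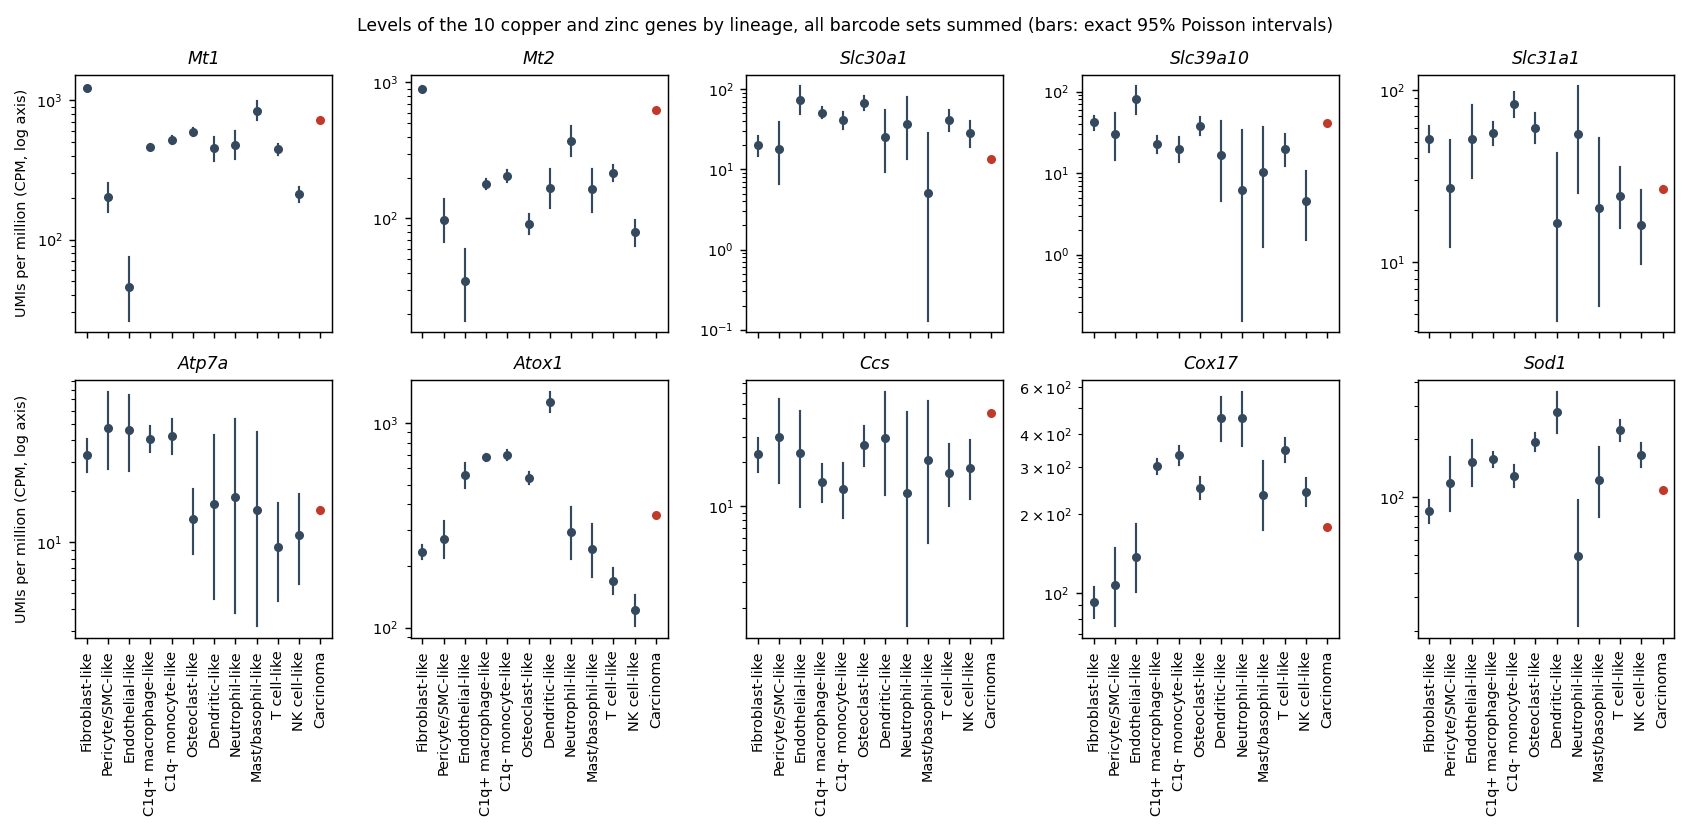
Level of each of the 10 genes in 11 host lineages and in carcinoma cells, in CPM on a log axis, 1 panel per gene, with points for all barcode sets summed and bars for exact 95% Poisson intervals. Mt1 and Mt2 are highest in fibroblast-like cells (1217 and 900 CPM) and lowest in endothelial-like cells (45.9 and 34.4 CPM). For Slc30a1 and Slc39a10 the endothelial-like points (74.6 and 80.3 CPM) have intervals that overlap those of 6 and 1 other lineages.

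In macrophage, monocyte and T cell-like cells Mt2 lay further below its carcinoma level than Mt1 did. In C1q-positive macrophage-like cells Mt1 was 462 CPM and Mt2 180 CPM, in C1q-negative monocyte-like cells 522 and 206 CPM, and in T cell-like cells 446 and 216 CPM, against 719 and 622 CPM in carcinoma cells. Mt2 was below its carcinoma level in 6 of 6 sets in macrophage-like and monocyte-like cells and in 5 of 5 usable sets in T cell-like cells. Mt1 was below it in 5 of 6, 4 of 6 and 5 of 5 of these sets. NK cell-like cells had 211 CPM of Mt1, with per-set ratios to carcinoma cells from 0.0161 to 1.12.

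The ratio of Mt1 to Mt2 UMIs put this difference into 1 number per lineage. It is used here only to compare lineages, since 3′ capture can differ between the 2 transcripts. It was 6.47 [5.43 to 7.75] in osteoclast-like cells and, in mast cells or basophils by marker gate, 5.13 [3.49 to 7.74]. In the other lineages it was 2.68 in dendritic cell-like, 2.67 in NK cell-like, 2.56 [2.32 to 2.82] in macrophage-like, 2.53 in monocyte-like, 2.07 in T cell-like, 2.06 in pericyte or smooth muscle-like, 1.35 in fibroblast-like, 1.33 in endothelial-like and 1.28 in neutrophil-like cells. Carcinoma cells had the lowest ratio, 1.16 [1.14 to 1.17], which the intervals of endothelial-like [0.592 to 3.09] and neutrophil-like cells [0.903 to 1.82] include. In set 6, the 1 set with 20 neutrophil-like cells, the ratio was 1.00 in them, against 1.19 in carcinoma cells. By barcode set it was 6.23, 10.1 and 11.8 in the 3 sets with at least 20 osteoclast-like cells and 2.23 to 3.32 in macrophage-like cells, against 0.870 to 1.29 in carcinoma cells. The sets of osteoclast-like and of macrophage-like cells did not overlap with those of carcinoma cells.

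Osteoclast-like cells, 174 cells led by Mmp9, Ctsk and Acp5, stood at the carcinoma level of Mt1 but far below it in Mt2. Over all sets Mt1 was 590 CPM in osteoclast-like cells, against 719 CPM in carcinoma cells. Inside the 3 usable sets it was 571, 547 and 534 CPM in osteoclast-like cells, against 529, 379 and 508 CPM in carcinoma cells, so the order turned and the ratio was 1.05 to 1.44. Sets 5 and 6, where carcinoma cells had the most Mt1, held few osteoclast-like cells. Mt2 was 91.7, 46.4 and 52.7 CPM in osteoclast-like cells, against 437, 436 and 477 CPM in carcinoma cells of the same sets.

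**Figure D2:**
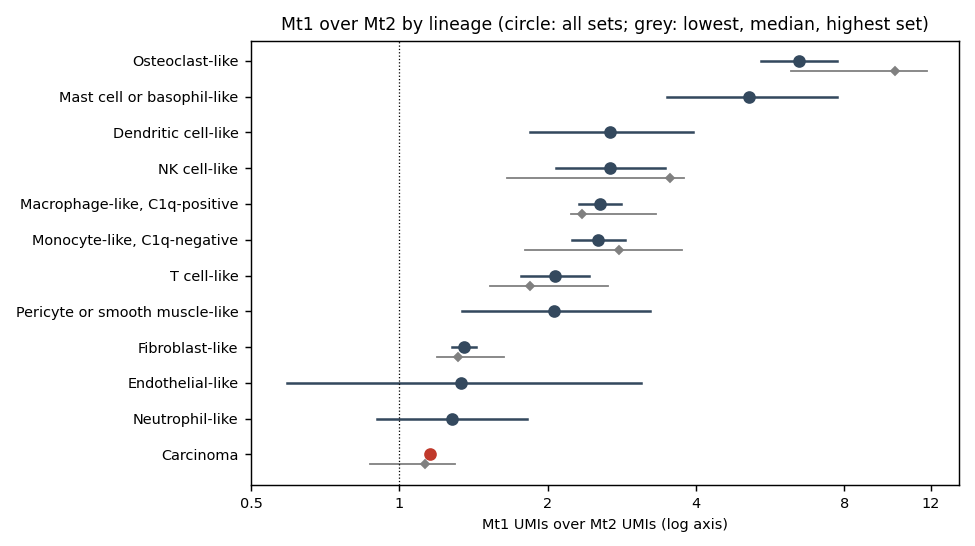
Mt1 UMIs divided by Mt2 UMIs in each lineage, on a log axis, with circles and bars for all sets summed with their 95% intervals and grey marks for the lowest, median and highest barcode set with at least 20 cells, drawn for lineages with several such sets. Osteoclast-like cells (6.47) and mast cell or basophil-like cells (5.13) lie at the high end, and carcinoma cells (1.16) at the low end.

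Free RNA from broken carcinoma cells can put Mt1 and Mt2 into other droplets, so carcinoma markers were counted in the same host cells. The gates admitted only host cells without a Xist UMI, and Xist was 1201 CPM in carcinoma cells. Droplets with Xist from carcinoma cells were thus left out before this count. The marker shares are therefore partly set by the gate and cannot give the amount of free RNA. The summed level of Prl2c2, Prl2c3, Tslp and Tac1, as a share of its carcinoma level, was 4.84% in fibroblast-like, 1.57% in endothelial-like, 3.72% in macrophage-like, 2.68% in T cell-like and 2.64% in NK cell-like cells. Mt1 in the same lineages was at 169%, 6.38%, 64.2%, 62.0% and 29.4% of its carcinoma level. Carcinoma markers were higher in osteoclast-like cells at 39.7%, where 1 cell gave 94.0% of them, in neutrophil-like cells at 29.4%, in pericyte or smooth muscle-like cells at 24.9%, where 1 cell gave 75.4%, and in monocyte-like cells at 9.87%. In these lineages 1 cell gave 4.10%, 24.4%, 11.8% and 8.16% of the Mt1 UMIs. In the endothelial-like cluster named by markers, where no Xist limit was set, Xist was 155 CPM. Mt1 was there 0.224 of its carcinoma level, against 0.0638 by gate. The part of carcinoma RNA in each level was not tested.

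The other 8 members followed other orders. How many members passed a 2-fold difference from all other analysed cells was read beside the share of 7198 well-covered genes that did so in the same lineage. In endothelial-like cells 3 members were at least 2-fold higher (Slc30a1, Slc39a10 and Atp7a; 10.9% of genes) and 2 at least 2-fold lower (Mt1 and Mt2; 20.0% of genes). In monocyte-like cells 3 were higher (Slc30a1, Slc31a1 and Atp7a; 9.2%) and 3 lower (Mt2, Slc39a10 and Ccs; 33.8%). In macrophage-like cells 2 were higher (Slc30a1 and Atp7a; 9.11%) and 2 lower (Mt2 and Ccs; 26.1%). In osteoclast-like cells 2 were higher (Slc30a1 and Slc31a1; 8.14%) and 1 lower (Mt2; 28.0%). The zinc exporter Slc30a1 was thus on the higher side in all 4 of these lineages.

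Dendritic cell-like cells had 3 members higher, the copper chaperones Atox1 and Cox17 and the enzyme Sod1 (9.24%), and 2 lower, Mt2 and Slc39a10 (39.2%). T cell-like cells had 2 higher, Slc30a1 and Sod1 (9.82%), and 4 lower, Mt2, Slc39a10, Atox1 and Ccs (28.4%). Neutrophil-like cells had 2 higher, Slc30a1 and Cox17 (8.29%), and 3 lower, Slc39a10, Ccs and Sod1 (36.8%). NK cell-like cells had 0 higher (6.95%) and 5 lower, Mt1, Mt2, Slc39a10, Atox1 and Ccs (31.0%). Pericyte or smooth muscle-like cells had 1 higher, Atp7a (7.81%), and 2 lower, Mt1 and Mt2 (18.1%). Fibroblast-like cells had 0 higher (6.15%) and 1 lower, Cox17 (16.0%). Mast cell or basophil-like cells had 0 higher (5.08%) and 3 lower, Mt2, Slc30a1 and Slc39a10 (44.0%). Carcinoma cells had 0 higher (0.722%) and 1 lower, Slc30a1 (4.82%). The shares lower in host lineages are high for genes at large, so a lower count there says little of the members.

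Slc30a1, the zinc exporter, was low in carcinoma cells and high in endothelial, osteoclast and macrophage-like cells. It stood at 74.6 CPM [48.7 to 109] in endothelial-like cells, 67.6 CPM [55.5 to 81.6] in osteoclast-like cells and 50.9 CPM [43.3 to 59.4] in C1q-positive macrophage-like cells, against 13.3 CPM [12.7 to 14.0] in carcinoma cells. The interval of endothelial-like cells overlapped that of 6 other lineages, so no single lineage stands as the highest. By set it was 43.1, 73.9, 126.9, 42.4, 41.5 and 65.8 CPM in macrophage-like cells, against 14.1, 10.8, 15.0, 11.5, 15.6 and 15.7 CPM in carcinoma cells. All 6 macrophage values lay above all 6 carcinoma values, with within-set ratios of 2.65 to 8.45. The ratio was also above 1 in 3 of 3 sets in osteoclast-like cells (4.19 to 8.99), 5 of 5 in T cell-like cells (1.34 to 4.75) and 5 of 6 in monocyte-like cells. Endothelial-like cells had no set with 20 cells. In them the 4 adipocyte markers summed to 1337 CPM, against 0.443 CPM in carcinoma cells with 2 at 0. All of the endothelial sum was Fabp4, a gene also known from capillary endothelium, and the other 3 markers were at 0. In macrophage-like cells the 6 erythroid and platelet markers summed to 1358 CPM with 3 at 0, against 6.78 CPM in carcinoma cells with 2 at 0. Pf4, also known from macrophages and among the leading genes of this lineage, gave 96.6% of the macrophage sum, and the others together 46.5 CPM.

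Slc39a10, the zinc importer, ran in another order, near the carcinoma level in fibroblast-like cells and above it in endothelial-like cells. It was 80.3 CPM [53.4 to 116] in endothelial-like cells and 41.8 CPM [34.2 to 50.8] in fibroblast-like cells, against 41.2 CPM [40 to 42.4] in carcinoma cells. In macrophage-like cells it was 22.4 CPM, below carcinoma cells in 6 of 6 sets. It was lowest in NK cell-like cells at 4.59 CPM [1.49 to 10.7], from 5 UMIs, at a ratio to carcinoma cells of 0.111. The interval of endothelial-like cells overlapped that of 1 other lineage. Their values rest on 26, 28 and 16 UMIs of Slc30a1, Slc39a10 and Mt1.

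Slc31a1, the copper importer, and Atp7a, the copper pump, were higher in mononuclear phagocytes and fibroblasts than in carcinoma cells. Slc31a1 was 82.3 CPM [69.5 to 96.9] in monocyte-like cells, 55.9 CPM in macrophage-like cells and 52.0 CPM in fibroblast-like cells, against 26.5 CPM [25.5 to 27.5] in carcinoma cells. By set it was 68.9, 71.3, 60.7, 84.2, 71.5 and 123.1 CPM in monocyte-like cells, against 27.3, 27.5, 25.2, 26.8, 25.6 and 24.4 CPM in carcinoma cells. The 2 ranges did not overlap, and the ratio was 2.41 to 5.04. Atp7a was 42.6 CPM [33.5 to 53.4] in monocyte-like cells, 40.8 CPM [34.0 to 48.4] in macrophage-like cells and 32.9 CPM [26.1 to 40.9] in fibroblast-like cells, against 15.5 CPM [14.8 to 16.3] in carcinoma cells. The Atp7a ratio was above 1 in 6 of 6 sets in each of the 3 lineages, at 1.70 to 4.71, 2.02 to 3.06 and 1.56 to 4.07. Its highest levels were in pericyte or smooth muscle-like cells at 47.7 CPM and endothelial-like cells at 45.9 CPM, on 16 UMIs each. T cell-like cells had 9.33 CPM of Atp7a, below carcinoma cells in 5 of 5 sets. Osteoclast-like cells parted the pair, with Slc31a1 at 60.2 CPM and Atp7a at 13.6 CPM, against 26.5 and 15.5 CPM in carcinoma cells.

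Atox1, the chaperone that serves Atp7a, was highest in dendritic cell-like cells. Its level was 1268 CPM [1129 to 1420] in 71 dendritic cell-like cells, 697 CPM in monocyte-like, 680 CPM in macrophage-like, 556 CPM in endothelial-like and 541 CPM in osteoclast-like cells, against 355 CPM in carcinoma cells. No other lineage's interval reached that of dendritic cell-like cells, and their ratio to carcinoma cells was 3.57. Fibroblast-like cells had 234 CPM, T cell-like cells 169 CPM and NK cell-like cells 121 CPM. The ratio to carcinoma cells was below 1 in 6 of 6 sets in fibroblast-like cells (0.572 to 0.754) and NK cell-like cells (0.305 to 0.413), and above 1 in 6 of 6 in macrophage-like cells (1.39 to 2.23) and monocyte-like cells (1.39 to 3.83).

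Ccs was the member whose highest level was in carcinoma cells. This copper chaperone for Sod1 stood at 14.5 CPM [10.6 to 19.4] in macrophage-like cells and 13.1 CPM [8.28 to 19.6] in monocyte-like cells, against 43.9 CPM [42.7 to 45.2] in carcinoma cells. By set it was 20.4, 20.1, 8.46, 8.66, 18.0 and 9.40 CPM in macrophage-like cells, against 46.0, 41.0, 28.4, 44.9, 46.7 and 42.2 CPM in carcinoma cells. The ranges did not overlap, and fibroblast-like and monocyte-like cells were likewise below carcinoma cells in 6 of 6 sets. The intervals of 5 other lineages reached that of carcinoma cells, each on 10 or fewer UMIs.

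Sod1, the enzyme that Ccs loads, was above its carcinoma level in dendritic, T, osteoclast and macrophage-like cells and lowest in neutrophil-like cells, at 49.1 CPM [21.2 to 96.7] from 8 UMIs. Sod1 was 278 CPM [215 to 354] in dendritic cell-like, 224 CPM [197 to 254] in T cell-like, 194 CPM [173 to 217] in osteoclast-like and 157 CPM [144 to 172] in macrophage-like cells, against 108 CPM [106 to 110] in carcinoma cells. In T cell-like cells it was 222, 198, 252, 230 and 233 CPM in sets 2 to 6, against 105, 113, 113, 115 and 107 CPM in carcinoma cells. These ranges did not overlap either. Cox17, the chaperone for cytochrome c oxidase, was 460 CPM in neutrophil-like, 459 CPM in dendritic cell-like, 348 CPM in T cell-like, 332 CPM in monocyte-like and 302 CPM in macrophage-like cells, against 179 CPM in carcinoma cells. It was above its carcinoma level in 6 of 6 sets in macrophage-like and monocyte-like cells and in 5 of 5 in T cell-like cells. Fibroblast-like cells were lowest at 92.6 CPM [81.0 to 105] and below carcinoma cells in 6 of 6 sets, as they were for Atox1, Ccs and Sod1.

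Depth differed between lineages, so the share of cells in which a gene was seen was taken from cells each thinned to 2000 UMIs. Mt1 was then seen in 64.6% of 325 fibroblast-like cells, 60.6% of 170 osteoclast-like cells, 42.9% of 650 macrophage-like cells and 12% of 50 endothelial-like cells, against 54.9% of 8237 carcinoma cells. Before thinning the shares were 84.6%, 93.1%, 45.7% and 22.4%, against 86.2%, at median depths of 6735, 8881.5, 2242 and 4692.5 UMIs, against 11274. Thinning left out 26, 4, 475 and 8 cells of these lineages and 160 carcinoma cells. The 12% of endothelial-like cells was the lowest share of Mt1 in any lineage, and how much of it was free RNA was not tested. Slc30a1 was seen in 18.0% of endothelial-like, 12.9% of osteoclast-like and 8.62% of macrophage-like cells, against 2.72% of carcinoma cells, and in 2.38% of 42 mast cell or basophil-like cells, its lowest share. Atox1 was seen in 88.0% of 50 dendritic cell-like cells and 71.8% of macrophage-like cells, against 49.6% of carcinoma cells, and lowest in NK cell-like cells at 23.8% of 206.

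Within carcinoma cells, both metallothioneins were highest in the hypoxic and the Krt5-positive states. The Ero1l-Sprr2h state, 346 cells with the hypoxia markers Egln3, Bnip3 and Adm among its 10 leading genes, had 2045 CPM of Mt1 [2001 to 2090], against 668 CPM in other carcinoma cells, 3.06-fold [2.99 to 3.13]. It had 1204 CPM of Mt2 [1170 to 1238], against 600 CPM in other carcinoma cells, 2.01-fold [1.95 to 2.07]. Those were the 2 members at least 2-fold higher in that state (1.42% of 8235 genes) and 0 were at least 2-fold lower (6.45%). The metal genes were left out of the clustering that made the states. In the 4 sets with at least 20 such cells (1, 4, 5 and 6) Mt1 was 1628, 2064, 3014 and 2705 CPM and its ratio to other carcinoma cells of the set 2.18 to 4.48. Mt2 was 897, 1009, 1823 and 2476 CPM, with ratios of 1.97 to 2.38. Every one of these 4 sets was above its other carcinoma cells for both genes. The Mt1 to Mt2 ratio in the state was 1.70 [1.64 to 1.76], against 1.16 in carcinoma cells as a whole. By set it was 1.81, 2.05, 1.65 and 1.09 in the state in sets 1, 4, 5 and 6, against 1.21, 1.07, 1.29 and 1.19 in all carcinoma cells of those sets, so it was higher in the state in 3 of 4 sets and lower in set 6.

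For the zinc exporter no excess of this size was seen in the hypoxic state. Slc30a1 was 15.0 CPM [11.5 to 19.3] there, 1.13-fold [0.862 to 1.47] over other carcinoma cells, an interval that includes 1 and lies below the metallothionein folds. Slc39a10 (0.99-fold), Slc31a1 (0.98-fold), Sod1 (0.99-fold) and Cox17 (0.93-fold) also had intervals that reach 1. Atp7a was 1.49-fold [1.2 to 1.84] and above 1 in 4 of 4 sets. Atox1 at 0.741-fold and Ccs at 0.757-fold were below 1 in 4 of 4 sets. Hmox1, the heme oxygenase gene of the metal and oxidant response list, was 609 CPM in the state, 3.11-fold. Of the other 77 metal genes in 7 lists, 67 had at least 50 UMIs, and Hmox1 and Car9 were the 2 of these at least 2-fold higher in the state. Car9, a carbonic anhydrase known as a hypoxia target and named after its values were seen, was 10.4 CPM there and 10.1-fold higher than in other carcinoma cells. Car9 is itself on the list of hypoxia markers used to call this state hypoxic, so its rise there is no separate result. Another 6 of the 67 genes were at least 2-fold lower there. They were Sod3 (0.0885-fold), the carbonic anhydrase Car2 (0.103-fold), and the lysyl oxidase-like genes Loxl1 (0.286-fold) and Loxl3 (0.398-fold). The others were the sparse Slc39a4 and Slc39a12, with 0 UMIs in the state and 71 and 53 in all cells. Of the 8235 genes 6.45% were at least 2-fold lower, but those genes passed a higher UMI limit, set in carcinoma cells alone. That share is thus no like background for the 67 genes. No share of genes at the limit of 50 UMIs was taken for the higher or the lower count.

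The Krt5-Prl2c5 state, 57 epithelial keratin-positive cells of which 51 were in set 3, had 1387 CPM of Mt1, 1.95-fold, 1314 CPM of Mt2, 2.13-fold, and 28.8 CPM of Slc30a1, 2.18-fold over other carcinoma cells. Mt2 and Slc30a1 passed 2-fold (3.29% of genes), and Ccs was lower at 0.337-fold (22.2% of genes). Inside set 3 the ratios were 2.37 for Mt1, 2.37 for Mt2 and 2.64 for Slc30a1, and with 1 usable set there is no check in a second.

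The Prl2c3-Akr1c18 state, 106 cells, was lowest for both metallothioneins, at 253 CPM of Mt1 and 214 CPM of Mt2. It had 1 member at least 2-fold higher, Atox1 at 726 CPM (0.777% of genes), and 4 at least 2-fold lower, Mt1, Mt2, Slc30a1 and Atp7a (51.6% of genes), so the lower count follows genes at large. The nuclear RNA Xist was 52.1 CPM in this state, against 1201 CPM in all carcinoma cells, and Malat1 was 214 CPM. The part of RNA quality in these levels was not tested. Atox1 was higher than in other carcinoma cells in 2 of 2 usable sets (1.78 and 2.47). Atp7a had 0 UMIs of 710650 in the state, which allows up to 5.19 CPM.

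Per UMI, the cycling states were low in metallothionein. Median depth was 19725.5 UMIs in the Hist1h1b-Hist1h2ae state and 12435.5 in the Nefl-Ccnb2 state, against 11274 in all carcinoma cells. A lower CPM there need not mean fewer molecules per cell. Before thinning, Mt1 was seen in 92.5% and 82.5% of their cells, against 86.2% of carcinoma cells. After thinning to 2000 UMIs it was seen in 47.3% and 44.8%, against 54.9%. In the Hist1h1b-Hist1h2ae state (978 cells, led by histone genes) Mt1 was 455 CPM, 0.584-fold, and Mt2 432 CPM, 0.649-fold over other carcinoma cells. Both were below other carcinoma cells in 5 of 5 sets, as was Atp7a at 8.43 CPM and 0.493-fold, the 1 member at least 2-fold lower (3.93% of genes), with 0 higher (3.58%). In the Nefl-Ccnb2 state (1052 cells, with Cdc20 and Cenpa) Mt1 was 517 CPM, 0.690-fold, and Mt2 451 CPM, 0.695-fold, both below in 6 of 6 sets. The copper pump was highest in the Slc7a2-Enpp2 state at 26.8 CPM, 1.91-fold [1.69 to 2.16] and above other carcinoma cells in 6 of 6 sets, where Cox17 was below in 6 of 6. In the 8 states other than the hypoxic, Krt5-Prl2c5, Prl2c3-Akr1c18 and Hist1h1b-Hist1h2ae states, 0 members passed 2-fold in either direction, where 2.28% of gene tests passed upward and 4.22% downward. Slc39a10 spanned 1.38-fold over all 12 states, the least of the members.

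**Figure D3:**
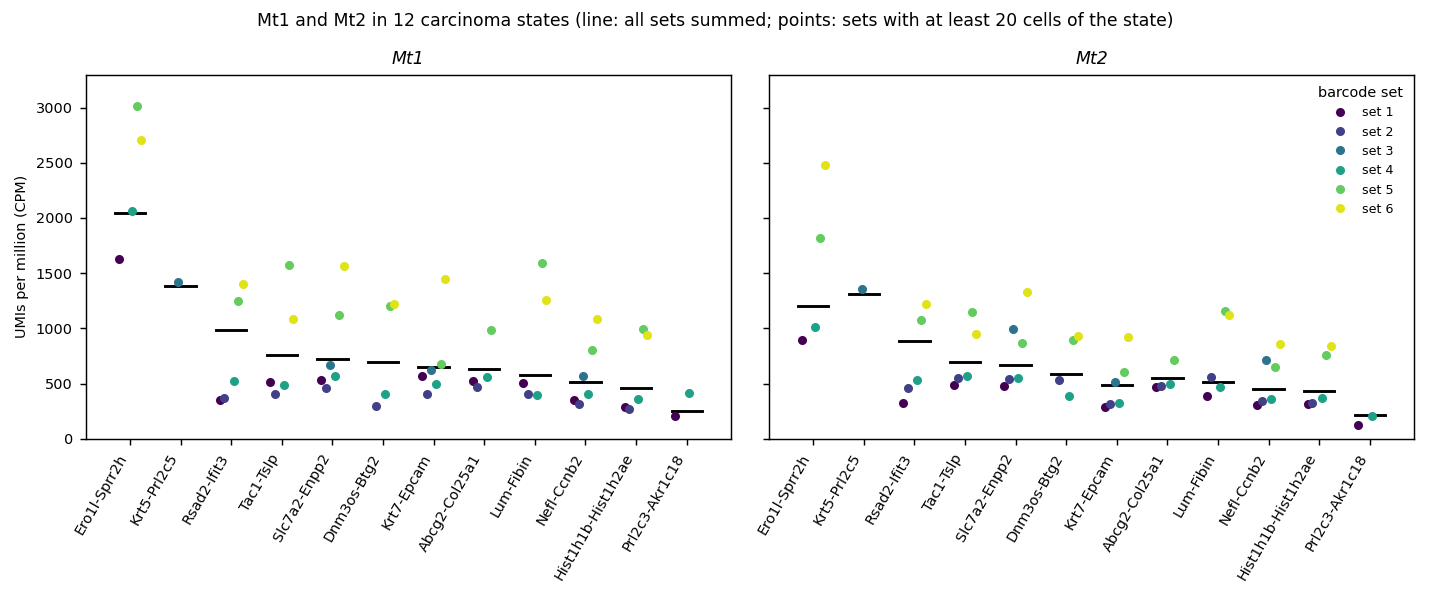
Mt1 and Mt2 in 12 carcinoma states, in CPM on a linear axis, with a line for all sets summed and a point for each barcode set with at least 20 cells of the state. The hypoxic Ero1l-Sprr2h state has 2045 CPM of Mt1 and all 4 of its points lie at 1628 CPM or above, and the Krt5-Prl2c5 state has 1 point, set 3 at 1423 CPM.

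In the interferon state the summed Mt1 fold and the ratios inside sets differed. In the Rsad2-Ifit3 state (889 cells with Isg15, Ifit1, Ifit3, Rsad2, Usp18 and Cxcl10 among its leading genes) Mt1 was 989 CPM, 1.44-fold over other carcinoma cells. Inside the 5 usable sets the ratio was 0.653 to 1.12 with a median of 0.999, above 1 in 2 of 5. Sets 5 and 6 gave 63.3% of the cells of this state and 28.2% of all carcinoma cells, and they had the most Mt1. The part of this mix of sets in the summed fold was not tested. For Mt2 the summed fold was 1.50 and the ratio inside sets 0.730 to 1.17, above 1 in 4 of 5.

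Mt1 was also followed over all 7305 carcinoma cells with at least 5000 UMIs. These were ranked and cut into 5 bins of equal size by their summed level of 8 hypoxia markers. A 9th listed marker, Ero1a, was not among the features under that symbol. The matrix holds this gene under its older symbol Ero1l, which leads the hypoxic state, and it was not used for the bins. From the lowest to the highest bin Mt1 was 471, 530, 611, 774 and 1351 CPM, Mt2 was 397, 477, 573, 710 and 1029 CPM, and Slc30a1 was 10.3, 12.3, 14.8, 13.8 and 16.4 CPM. Outside the hypoxic state Mt1 still ran to 1108 CPM in the highest bin, against 469 CPM in the lowest. The highest bin was above the lowest for Mt1 in 5 of 6 sets, with ratios of 4.40, 1.86, 0.725, 3.62, 2.19 and 2.19 in sets 1 to 6. Set 3 went the other way, and the cause was not tested. Of its 373 carcinoma cells with at least 2000 UMIs, 225 were in the Krt7-Epcam state and 51 in the Krt5-Prl2c5 state. For Slc30a1 the same ratio was 1.6 over all sets and 0.954 to 1.97 by set, also above 1 in 5 of 6 sets with set 3 the exception. For Mt2 it was 2.59 over all sets and above 1 in the same count of sets.

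By 5 such bins of 8 interferon markers Mt1 was 483, 634, 690, 819 and 954 CPM over all sets. Inside sets the highest bin over the second, the lowest one with enough cells in every set, was 0.951, 1.38, 1.18, 0.930, 0.917 and 1.66 in sets 1 to 6, above 1 in 3 of 6. The same ratio over all sets was 1.51. For Mt2 it was 1.54 over all sets and above 1 in 6 of 6 sets, at 1.06 to 1.64. For the hypoxia markers the ratio of the outer bins was 2.87 over all sets, which 2 of 6 sets exceeded.

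**Figure D4:**
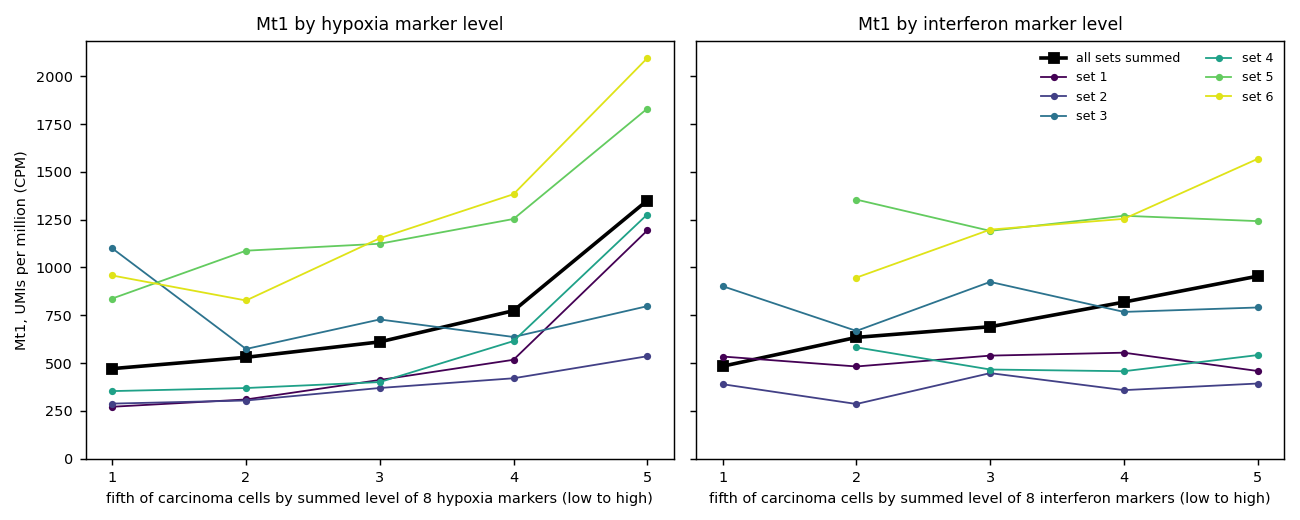
Mt1 level, in CPM, in 5 bins of carcinoma cells by summed hypoxia marker level (left) and interferon marker level (right), low to high, with a line per barcode set and 1 for all sets. With hypoxia markers Mt1 goes up to 1351 CPM in the highest bin over all sets and is higher there than in the lowest in 5 of 6 sets, while with interferon markers the highest bin is above the second in 3 of 6 sets.

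Cells with Mt1 tended to have Mt2. After thinning to 2000 UMIs, the 2 counts had a Pearson r of 0.610 over 8237 carcinoma cells, 0.417 to 0.669 inside single sets, 0.746 over 325 fibroblast-like cells and 0.566 over 650 macrophage-like cells. The cells share libraries and sets, and no p is given. Mt2 was seen in 67.4% of Mt1-positive carcinoma cells, against 36.7% of Mt1-negative ones. The same shares were 70.9% and 38.3% in fibroblast-like cells and 27.6% and 10.8% in macrophage-like cells.

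Between barcode sets, carcinoma Mt1 and Mt2 varied more than the other members. The highest set over the lowest was 3.38 for Mt1 and 2.48 for Mt2, past 2-fold, as in 12.2% of 8235 genes. It was 1.13 for Slc31a1, 1.15 for Sod1, 1.24 for Cox17, 1.27 for Atox1, 1.45 for Slc30a1, 1.51 for Atp7a, 1.61 for Slc39a10 and 1.64 for Ccs, and the median gene had 1.33. Of all these genes 4.64% reached the ratio of Mt1 and 8.08% that of Mt2. Sets 5 and 6 were the highest for both genes in carcinoma cells. Within each of the 7 states with at least 5 usable sets the highest set was again 5 or 6 for both genes, and the highest set over the lowest was 3.41 to 4.03 for Mt1 and 2.35 to 3.79 for Mt2. In macrophage-like cells the order was another, with Mt1 at 466, 426, 702, 384, 454 and 661 CPM and Mt2 at 140, 191, 296, 168, 195 and 247 CPM in sets 1 to 6, highest in set 3.

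Hmox1 in carcinoma cells was 205, 92.2, 112, 151, 307 and 464 CPM and the interferon-induced Isg15 was 108, 103, 112, 271, 555 and 374 CPM in sets 1 to 6. These were also highest in sets 5 and 6. Which treatment, if any, a set received is unknown, so these values say nothing of the drug.

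**Figure D5:**
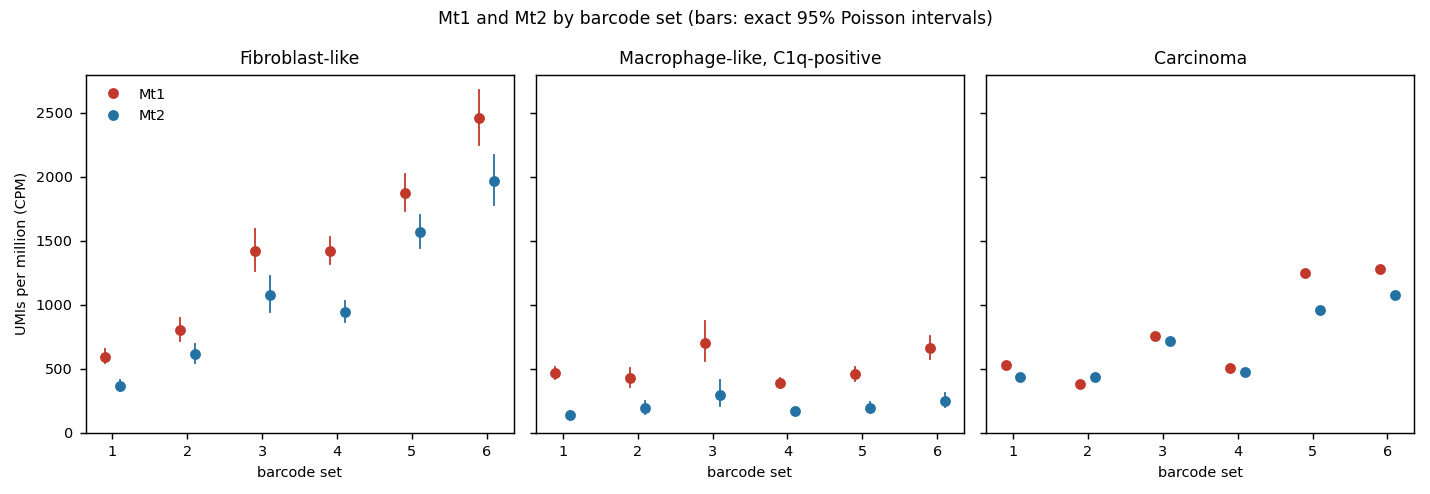
Mt1 and Mt2 by barcode set in fibroblast-like, macrophage-like and carcinoma cells, in CPM with exact 95% Poisson intervals. In carcinoma and fibroblast-like cells sets 5 and 6 are highest (1245 and 1279 CPM of Mt1 in carcinoma cells), and in macrophage-like cells set 3 is highest (702 CPM).

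The genes whose pattern over the 23 classes was most like each of 4 members were found among 10634 genes by Pearson correlation of log2(CPM + 5). For Mt1 they were Mt2 (r = 0.84), Rhbdd2, Ssh3, Chmp1a and Htatip2 (0.69 each). For Mt2 they were Igf2bp2 (0.88), Steap1, Fosl1, Lratd1 (0.87 each) and Dmrta2 (0.86). For Slc30a1 they were Prdm1 (0.87), Mir17hg (0.85), Atg3, N4bp1 and Vsir (0.82 each). For Slc31a1 they were Sh2b2 (0.91), Pxk (0.85), Hacd4 (0.84), Cfb (0.82) and Dram2 (0.81). Classes share libraries, and 12 of the 23 are states of 1 line, so these are descriptions.

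Other metal genes gave a background to the members, with up to 3 named per list by the largest span between lineages. Of all 14474 genes with at least 50 UMIs, 34.8% had their highest level in stroma (fibroblast, pericyte or endothelial-like cells), 32.3% in myeloid cells, 20.4% in T, NK or mast cell-like cells and 12.6% in carcinoma cells. The counts by list below stand beside these shares, and some of the highest levels, that of Slc30a6 among them, have intervals that reach the carcinoma level. Mt3, a metallothionein best known from brain, stood out in osteoclast-like cells at 156 CPM, against 2.01 CPM in carcinoma cells. Mt4 had 28.8 CPM in the Krt5-Prl2c5 state, against 3.97 CPM in all carcinoma cells, and Mtf2 stood at 91.5 CPM in T cell-like cells, against 31.8 CPM in carcinoma cells. Of the Slc30 family 5 of 9 listed genes had at least 50 UMIs and all 5 were highest in stroma. Slc30a4 was 204 CPM in endothelial-like cells, against 148 CPM in carcinoma cells. Slc30a6 was 10.6 CPM [6.90 to 15.5] in fibroblast-like cells, against 8.82 CPM in carcinoma cells, and Slc30a7 was 54.5 CPM in endothelial-like cells, against 30.1 CPM in carcinoma cells. Of the Slc39 family 11 of 13 had at least 50 UMIs, and 6 were highest in stroma. Slc39a14, an importer of zinc and iron, was 338 CPM in fibroblast-like cells, against 70.9 CPM in carcinoma cells. Slc39a13 was 66.4 CPM in osteoclast-like cells, and Slc39a4 was 11.2 CPM in T cell-like cells, against 0.277 CPM in carcinoma cells.

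Among 16 other genes of copper transport and delivery, 15 had at least 50 UMIs, 4 were highest in carcinoma cells, 9 in myeloid cells and 2 in stroma. The Steap genes encode metalloreductases that reduce iron and copper. Steap4 was 167 CPM in pericyte or smooth muscle-like cells, against 2.78 CPM in carcinoma cells. Steap2 and Steap1 were 0.918 CPM in NK cell-like cells and 1.86 CPM in osteoclast-like cells at their lowest, against 121 and 62.7 CPM in carcinoma cells. Of 15 copper or zinc enzymes and binders 12 had at least 50 UMIs and 7 were highest in stroma. The secreted copper-zinc dismutase Sod3 was 401 CPM in fibroblast-like cells, against 5.38 CPM in carcinoma cells. The zinc-binding calprotectin genes S100a9 and S100a8, both neutrophil gate markers, were 21725 and 15053 CPM in neutrophil-like cells, against 1.71 and 4.76 CPM in carcinoma cells.

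Of 10 lipoylated enzymes and copper toxicity genes, 10 had at least 50 UMIs, 5 were highest in myeloid cells, 3 in stroma and 2 in T, NK or mast cell-like cells. The ferredoxin Fdx1 was 344 CPM in mast cell or basophil-like cells, against 176 CPM in carcinoma cells, and 387 CPM in the Lum-Fibin state. Pdha1 was 167 CPM in pericyte or smooth muscle-like cells and Dld 141 CPM in osteoclast-like cells, against 91.3 and 44.6 CPM in carcinoma cells. Of 10 metal and oxidant response genes, Hmox1 was 1836 CPM in macrophage-like cells, against 211 CPM in carcinoma cells, above it in 6 of 6 sets. Slc7a11, the cystine transporter, was 1680 CPM in neutrophil-like cells, against 42.7 CPM in carcinoma cells, and Nqo1 had 58 UMIs in all, with 20.1 CPM in endothelial-like cells.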

How the data were processed

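Single cells of 6 pooled tumors were measured by droplet 3′ sequencing. Per the file headers, the deposited matrix holds raw UMI counts per gene and cell made with Cell Ranger 7.0.0. The submitters' processing notes name Cell Ranger 7.1, Seurat and mm10. Kept cells had 500 genes or more and a mitochondrial share of UMIs below 15%. A doublet caller (expected rate 6%) marked 21 of 13768 cells, or 0.153%, so it has not worked, and doublets may remain.

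Cells were clustered without the metal genes (scanpy 1.11.5, leidenalg 0.10.2) and placed into lineages by marker gates. A host cell had 0 Xist UMIs, at least 3 list markers and at least 10 marker UMIs per 10000 (fibroblasts 5 and 150, dendritic and B cells 2 markers). A carcinoma cell met the marker limits of no host lineage, except that a cell with Xist could meet those for fibroblasts. It had 0 Ptprc and Y-linked UMIs, and carried Xist, 2 UMIs of the line's markers or 4 epithelial markers. The gate limits were set after the data were seen, and the members and lists were chosen with earlier results of these data known. Counts were summed per class or per class and set, with exact 95% Poisson intervals and conditional binomial intervals for ratios (scipy 1.17.1). Calculations were tested on simulated counts. The text names all 10 members, the 5 genes most like 4 of them over classes, and up to 3 genes per metal gene list with at least 50 UMIs by their span between lineages. Within a set, classes needed at least 20 cells. Background shares used genes with at least 2000 UMIs (1000 in carcinoma cells). Of the planned comparison of treated with vehicle tumors none was made, because no label maps cells to tumors. The 12 multiplexing tags carry no tumor names and were not used.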

Additional observations from a re-analysis of the deposited data

How the results depend on the processing

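Of 193 alternative values of 14 ratios and 6 shares, 159 stayed within the interval of the reported value and 34 moved. No ratio whose interval excludes 1 crossed 1. Slc30a1 in the hypoxic state, whose interval includes 1, was 0.970 without set 1. Medians over sets, in place of sums, gave 3.15 for Mt1 and 2.22 for Mt2 in the hypoxic state, 1.91 for Mt1 and 1.57 for Mt2 in fibroblast-like over carcinoma cells, and 10.1 and 1.13 for Mt1 over Mt2 in osteoclast-like and carcinoma cells. A stricter filter (1000 genes, 10% mitochondrial) gave 1.38 for Mt2 in fibroblast-like cells. Clusters named by markers, in place of gates, gave 1.82 for Mt1 and 1.57 for Mt2 in fibroblast-like cells, 0.224 for Mt1 in endothelial-like cells, against 0.0638 by gates, 3.02 for Slc30a1 in macrophage-like cells, and 4.62 and 1.72 for Mt1 over Mt2 in osteoclast-like and macrophage-like cells. Thinning to 1000 UMIs gave shares with Mt1 of 73.1% in the hypoxic state, 51.1% in fibroblast-like and 38.8% in carcinoma cells, and with Slc30a1 of 5.45% in endothelial-like and 1.36% in carcinoma cells. Leaving out each set in turn gave, in the hypoxic state over other carcinoma cells, 2.73 to 3.33 for Mt1, 1.92 to 2.26 for Mt2 and 0.970 to 1.23 for Slc30a1. Over carcinoma cells it gave 1.45 to 1.92 for Mt1 and 1.31 to 1.67 for Mt2 in fibroblast-like cells, 0.0506 to 0.0719 for Mt1 in endothelial-like, 3.51 to 4.14 for Slc30a1 in macrophage-like, 2.76 to 3.22 for Slc31a1 in monocyte-like, 0.288 to 0.400 for Ccs in macrophage-like, 3.43 to 3.65 for Atox1 in dendritic cell-like and 0.0555 to 0.149 for Slc39a10 in NK cell-like cells. Mt1 over Mt2 was 5.76 to 7.06 in osteoclast-like, 2.36 to 2.68 in macrophage-like and 1.09 to 1.19 in carcinoma cells. The lower shares at 1000 UMIs follow from the fewer UMIs kept per cell. The cause of the other moves was not tested. The wider filter and keeping all marked doublets gave no carcinoma-state values, and clusters gave none for Slc31a1 in monocyte-like cells. Leaving out the Dnm3os-Btg2 and Prl2c3-Akr1c18 states was added after the data were seen. No paired analysis was possible because no label maps cells to tumors. Small classes limit the sparse members, which are Slc30a1, Atp7a, Slc31a1, Slc39a10 and Ccs.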

Other observations

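Carcinoma Mt1 by barcode set ran from 379 to 1279 CPM. Sets 5 and 6 had 1245 and 1279 CPM, set 3 had 751 CPM, and sets 1, 4 and 2 had 529, 508 and 379 CPM. Mt2 was 961, 1079, 718, 437, 477 and 436 CPM in sets 5, 6, 3, 1, 4 and 2. Fibroblast-like Hmox1 was 355, 242, 161, 226, 577 and 1116 CPM in sets 1 to 6, and macrophage-like Hmox1 was 2506, 779, 1979, 1061, 2281 and 2769 CPM. No label gives any set a group.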
